A study of Homo sapiens with 13 samples.

Results

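Peaks near the centromeres of the autosomes were examined in the established human embryonic stem cell line H1 after capture of genomic DNA with biotin-tagged polyamides. A peak was taken when its midpoint lay within 10 Mb of a single centromere position per autosome on the human build hg19, and these are called pericentromeric peaks here. The rule found 706 of the 6064 peaks in 4 deposited lists, and it used no measured value other than position. The series holds 13 libraries in 7 groups of H1 cells grown in E8 medium on Matrigel. Treatment lasted 24 h, and compounds 2 and 4 account for 8 libraries, 2 for either compound at either 20 nM or 400 nM. Every molecule carried biotin for capture and psoralen, which bonds to DNA under ultraviolet light. Compounds 5 and 6 (400 nM, 2 libraries each) and the 1 input library had no list among the files and were not analysed here. There were 2 lists for compound 2 and 2 for compound 4, in each case 1 named for 400 nM and 1 named for the compound alone, called undosed. Nothing in the sources states which libraries went into an undosed list, and it is not known to differ from the 400 nM list in dose.

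Polyamides are chains of N-methylpyrrole and N-methylimidazole rings that lie in the minor groove of DNA, where the rings read base pairs. Per the structures in the labels, compound 2 is a hairpin whose ring strands are joined by a turn and which ends in a chlorothiophene cap. Compound 4 is a linear chain with beta-alanine units set between its imidazole and pyrrole rings. Centromeres and their flanks are known for tandem repeats: alpha satellite forms the centromere core, and blocks of other satellite families lie beside it on several chromosomes. Genome builds such as hg19 hold these repeats only in part. No sequence of the files' build was used here, so repeat class, genes and binding motifs at the peaks were not examined, and places are given by chromosome band.

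Pericentromeric peaks numbered 62 of 486 in the undosed compound 2 list and 173 of 923 in the 400 nM compound 2 list. The compound 4 lists held 273 of 3074 (undosed) and 198 of 1581 (400 nM). The windows made up 15.3% of autosomal length, gaps in the build included. Of autosomal peaks, 18.9% lay in the windows for 400 nM compound 2 (exact 95% interval 16.4 to 21.6%, 173 of 914 peaks), which is 1.24 times the share of length (1.08 to 1.42). For undosed compound 2 the share was 13.1% (10.2 to 16.4%), or 0.855 times length (0.665 to 1.08). Both compound 4 lists were below length, at 9.08% (8.07 to 10.2%), or 0.594 times (0.529 to 0.665), in the undosed list and 12.8% (11.2 to 14.6%), or 0.841 times (0.735 to 0.957), at 400 nM. The 400 nM compound 2 list was thus the list with the highest share near centromeres and the only one whose interval lay above the share of length.

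Many neighbouring peaks formed a few tight groups, so the count was repeated after joining peaks of a list that lay within 1 kb of each other. The 173 pericentromeric peaks of 400 nM compound 2 became 111 regions, or 1.56 peaks per region. The other lists shrank less, from 62 to 47 regions (undosed compound 2), from 273 to 251 (undosed compound 4) and from 198 to 168 (400 nM compound 4). As regions, the 400 nM compound 2 list came to 13.6% (11.3 to 16.1%), or 0.890 times length. Its excess over length, gaps in the build included, was thus not seen in regions. The share of sequenced length alone was not computed, so how any list stands against it was not tested. Without chromosome 10 its peaks came to 0.826 times length, and without the 4 largest groups described below to 0.695 times. The groups hold pericentromeric peaks only, so taking them out had to lower the ratio. Chromosome 10 was likewise picked for its many such peaks, and neither drop is a test. There is 1 list per compound and dose label, so no difference between lists was tested. Intervals are for counting error alone, as if each peak were independent.

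Crowding at the scale of 1 kb differed between the lists. Among pericentromeric peaks of 400 nM compound 2, 93 of 173 (53.8%, 46.0 to 61.4%) had another peak of the list within 1 kb, where the whole list had 16.8%. In the undosed compound 2 list it was 27 of 62 (43.5%, 31.0 to 56.7%), against 27.4% of the whole list. For compound 4 it was 44 of 273 (16.1%) against 17.3% in the undosed list and 60 of 198 (30.3%, 24.0 to 37.2%) against 24.2% at 400 nM. Of the 93 peaks of 400 nM compound 2, 84 lay within 3 Mb of the centromere position, where they made up 77.8% of the 108 peaks (68.8 to 85.2%). From 3 to 10 Mb 9 of 65 had such a neighbour (13.8%, 6.53 to 24.7%). Among all other peaks of the list, chromosomes X and Y included, 8.27% (6.40 to 10.5%) did. Outside the 4 largest groups it was 19 of 88 (21.6%). The largest region joined 8 peaks in that list, 4 in the undosed compound 2 list and 2 in either compound 4 list.

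**Figure D1:**
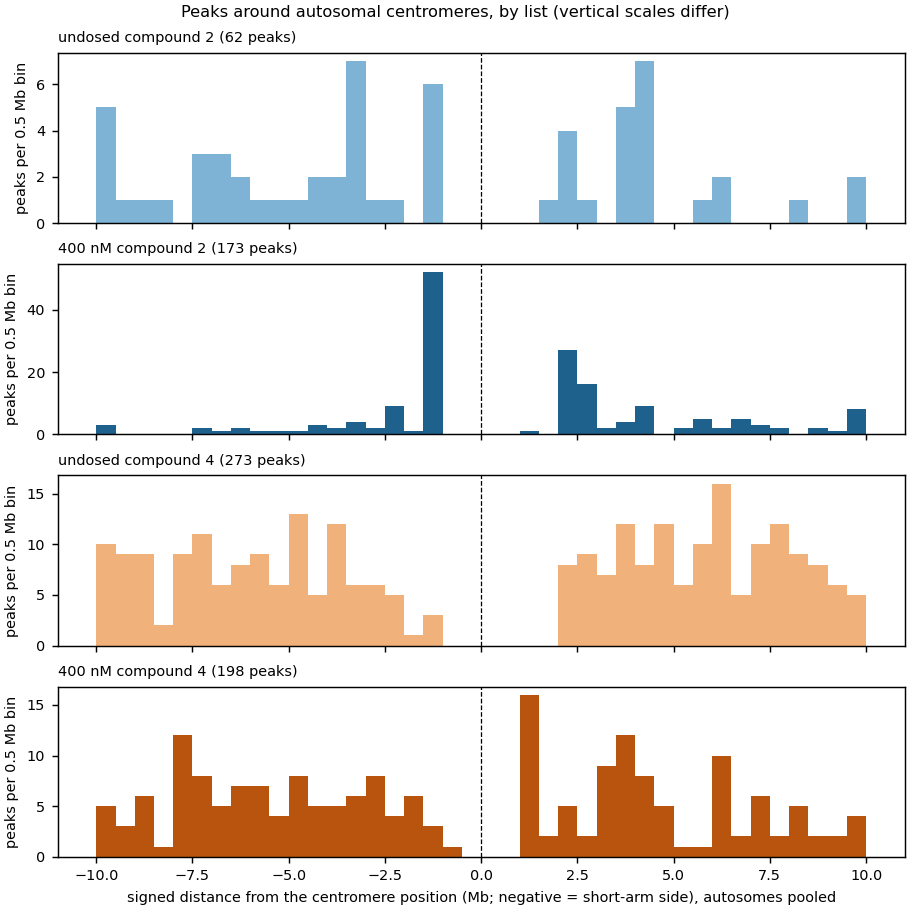
Number of peaks per 0.5 Mb bin (vertical axis) against signed distance from the centromere position in Mb (horizontal axis), all autosomes pooled, with 1 panel per list and its own vertical scale. In the 400 nM compound 2 panel the peaks gather on both sides between 1 and 3 Mb, while the undosed compound 4 panel is spread over the outer part of the window.

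The distance from the centromere position was compared next. Within 3 Mb, a limit chosen after the values were seen, lay 108 of the 173 pericentromeric peaks of 400 nM compound 2 (62.4%, 54.8 to 69.7%). The same zone held 14 of 62 for undosed compound 2 (22.6%, 12.9 to 34.97%), 32 of 273 for undosed compound 4 (11.7%, 8.16 to 16.1%) and 47 of 198 for 400 nM compound 4 (23.7%, 17.99 to 30.3%). All 85 peaks of the 4 largest groups of 400 nM compound 2 lay in this zone, and without them it held 23 of 88 (26.1%, 17.3 to 36.59%). Without their own 4 largest groups the zone held 8 of 48 for undosed compound 2 (16.7%), 32 of 261 for undosed compound 4 (12.3%) and 29 of 174 for 400 nM compound 4 (16.7%). Most of the 108 peaks of 400 nM compound 2 there were thus those of 4 groups, and taking these out had to lower its share. Without them its interval meets those of 400 nM compound 4 (11.5 to 23.1%) and undosed compound 2 (7.48 to 30.2%). It lies above that of undosed compound 4 (8.54 to 16.9%). The median distance over all pericentromeric peaks of 400 nM compound 2 was 2.42 Mb, against 4.29, 5.97 and 4.81 Mb in the lists in that order. After joining within 1 kb, 51 of its 111 regions (45.9%, 36.4 to 55.7%) were still within 3 Mb, and the median moved to 3.45 Mb. Regions there were 11 of 47 (23.4%, 12.3 to 38.0%) for undosed compound 2 and 32 of 251 (12.7%, 8.89 to 17.5%) for undosed compound 4. For 400 nM compound 4 they were 42 of 168 (25%, 18.7 to 32.3%).

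The innermost 1 Mb on either side was nearly empty: the single peak there was 1 of 400 nM compound 4 at 3p11.1 (chromosome 3, 90461645 to 90462248), 0.538 Mb from the centromere position. The nearest peaks of the other lists were 1.07 Mb (both compound 2 lists) and 1.13 Mb (undosed compound 4) away. Unsequenced gaps of the build count as window here and in the densities below, and their part in the empty zone was not tested. Between 1 and 2 Mb the 400 nM compound 2 list held 54 peaks, or 123 per 100 Mb of window, and between 5 and 10 Mb 40 peaks, or 18.2 per 100 Mb. Undosed compound 4 ran the other way, with 4 peaks (9.09 per 100 Mb) and 166 peaks (75.5 per 100 Mb) in the same zones. The 400 nM compound 4 list had 27 peaks (61.4 per 100 Mb) and 93 (42.3 per 100 Mb), and the undosed compound 2 list had 7 (15.9 per 100 Mb) and 24 (10.9 per 100 Mb). In regions joined within 1 kb the 400 nM lists had like numbers between 1 and 2 Mb, with 21 for compound 2 (47.7 per 100 Mb) and 23 for compound 4 (52.3 per 100 Mb). Between 2 and 3 Mb they had 30 (68.2 per 100 Mb) and 18 (40.9 per 100 Mb). From 5 to 10 Mb they had 36 (16.4 per 100 Mb) and 79 (35.9 per 100 Mb).

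Bands stained as centromere, which hold the satellite core and its edges, contained 60 peaks of 400 nM compound 2 and 30 of 400 nM compound 4. These were 34.7% and 15.2% of the pericentromeric peaks of their lists. The undosed lists had 8 (compound 2, 12.9%) and 10 (compound 4, 3.66%) there. Of the 60, 52 were in 10p11.1, and the remainder were in 21p11.1 (3), 22q11.1 (2), 2q11.1, 3p11.1 and 7q11.1 (1 each). Of the 30, 14 were in 19q11, 5 in 8p11.1 and 3 in 3p11.1. The undosed compound 4 list had 7 of its 10 in 3p11.1, and the undosed compound 2 list had 6 of its 8 in 10p11.1. Counted as regions, 25, 26, 6 and 10 lay in centromere bands for 400 nM compound 2, 400 nM compound 4, undosed compound 2 and undosed compound 4. The whole lists had 826, 1386, 415 and 2802 regions in that order. The 400 nM lists, at 60 and 30 peaks, thus had nearly the same number of regions there. As a part of its own list, the number for compound 2 was still the larger.

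**Figure D2:**
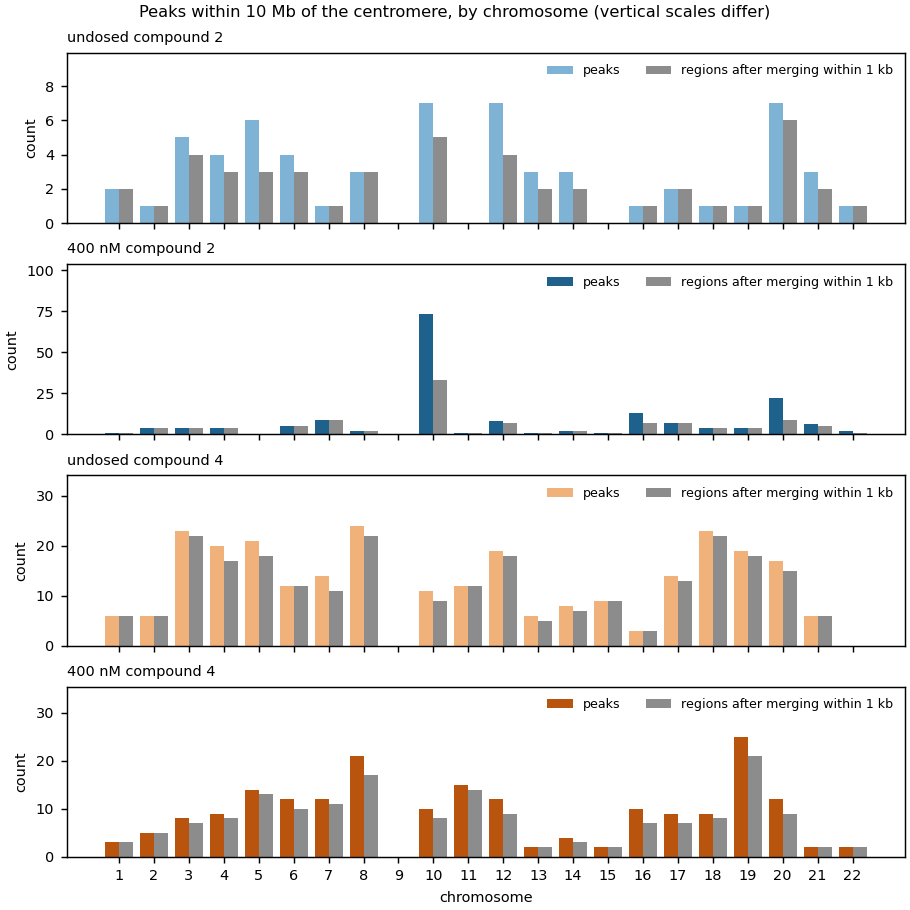
Pericentromeric peaks (coloured bars) and regions after joining peaks within 1 kb (grey bars) on each autosome, with 1 panel per list and its own vertical scale. Chromosome 10 holds 73 peaks and 33 regions of the 400 nM compound 2 list, while compound 4 peaks are spread over most chromosomes.

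By chromosome, compound 2 at 400 nM was the most uneven. Chromosome 10 held 73 of its 173 pericentromeric peaks (42.2%, 34.7 to 49.9%), chromosome 20 held 22 (12.7%) and chromosome 16 held 13 (7.51%). As regions, chromosome 10 still led with 33 of 111 (29.7%, 21.4 to 39.1%), and chromosomes 20 and 7 had 9 each. In the undosed compound 2 list chromosomes 10, 12 and 20 had 7 of 62 peaks each (11.3%, 4.66 to 21.9%). No chromosome stood out to that degree for compound 4. Its undosed list had 24 of 273 on chromosome 8 (8.79%) and 23 each on chromosomes 3 and 18, and its 400 nM list had 25 of 198 on chromosome 19 (12.6%, 8.34 to 18.1%), 21 on chromosome 8 and 15 on chromosome 11. Chromosome 9 had no pericentromeric peak in any list, and the gaps in its window were not measured. Chromosome 5 had 0 for 400 nM compound 2 and 6 for undosed compound 2, and chromosome 22 had 0 for undosed compound 4.

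To describe the groups, pericentromeric peaks of a list were chained into blocks when the gap between them was at most 100 kb. The 4 blocks with the most peaks held 85 of 173 peaks for 400 nM compound 2 (49.1%, 41.5 to 56.8%). They held 14 of 62 (22.6%), 12 of 273 (4.40%) and 24 of 198 (12.1%) in the undosed compound 2, undosed compound 4 and 400 nM compound 4 lists. Blocks of 5 or more peaks numbered 6 for 400 nM compound 2, 1 for undosed compound 2, 1 for 400 nM compound 4 and 0 for undosed compound 4. Single peaks made up 33.5% of the pericentromeric peaks of 400 nM compound 2 and 65.2% of those of undosed compound 4.

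The largest block lay in 10p11.1 (chromosome 10, 39077388 to 39127224), 1.07 to 1.12 Mb from the centromere position. It held 40 peaks of 400 nM compound 2 in 49.8 kb, which covered 41.4% of that stretch and joined into 12 regions at 1 kb. Neighbouring midpoints were 1141 bp apart in the median, with a range of 200 to 4189 bp. Scores, which the authors gave and which rank peaks only within a list, ran from 23.0 to 107 with a median of 31.5. The block included the top peak of the whole list, at chromosome 10, 39079179 to 39079754 (score 107), and those ranked 7 (39125350 to 39125925, score 70.4) and 13 (39119784 to 39120359, score 56.2). Of its 40 peaks, 11 were in the top 10% of the list by score and 30 in the upper 50%, so it mixed high and low ranks. A smaller block of the same band (chromosome 10, 38790052 to 38806597) held 11 peaks ranked 101 to 829, with none in the top 10%.

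On the long-arm side of the same centromere, a block in 10q11.21 (chromosome 10, 42790814 to 42815915) held 15 peaks of 400 nM compound 2, ranked 17 to 552, of which 14 were in the upper 50%. The second largest block lay on another chromosome, in 20q11.21 (chromosome 20, 29804371 to 29833368), with 19 peaks ranked 22 to 825. Median steps between midpoints were 1176 bp in 20q11.21, 1701 bp in 10q11.21 and 1566 bp in the smaller 10p11.1 block, all of the same order as in the largest. Peaks covered 34.8%, 28.8% and 32.4% of these stretches. All 4 blocks come from 1 list, so they are not independent of each other.

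**Figure D3:**
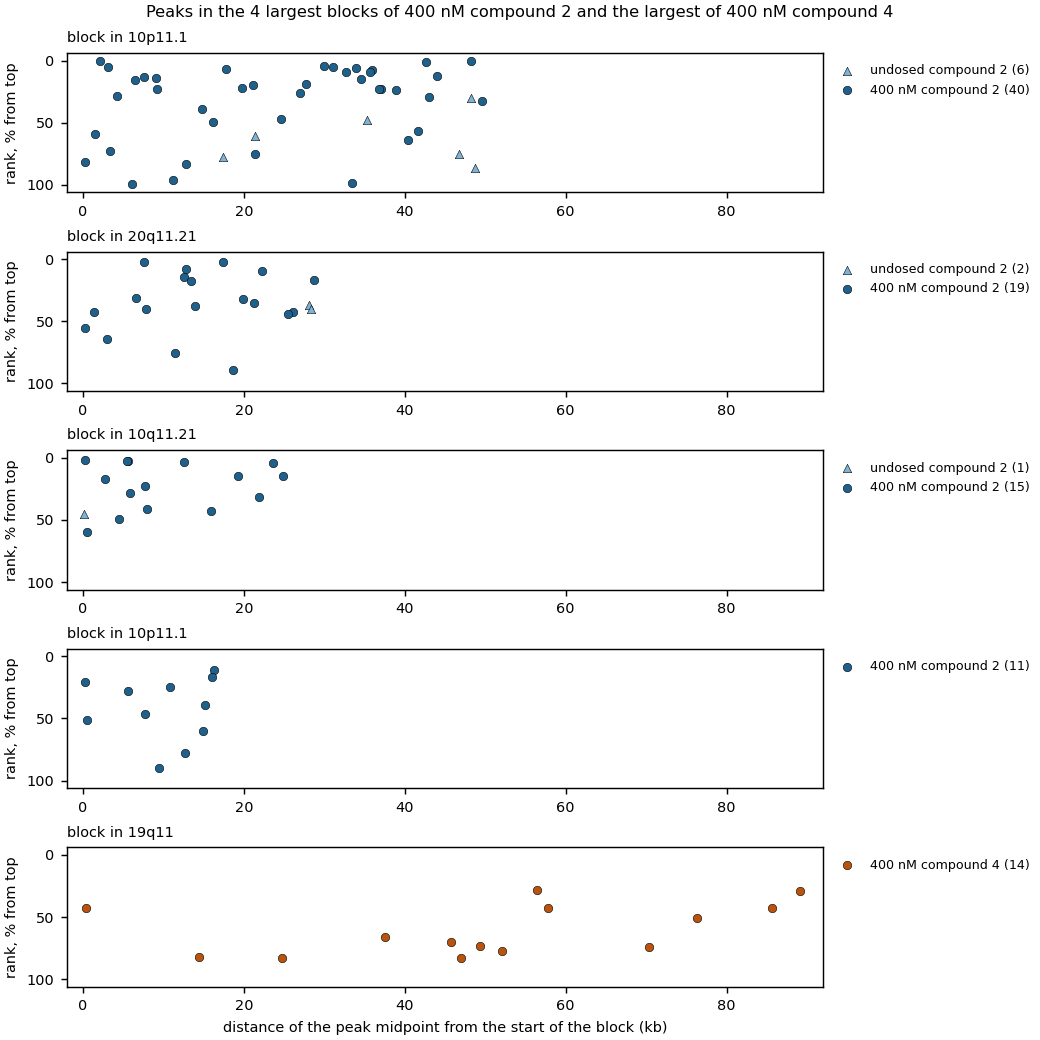
Peaks in the 4 largest blocks of 400 nM compound 2 and the largest of 400 nM compound 4, with the distance of each midpoint from the block's start in kb (horizontal axis) against its rank as a percent of its own list from the top (vertical axis, 0 at the top). Circles are 400 nM peaks and triangles undosed peaks; the 10p11.1 block has 40 peaks in 49.8 kb, while the 14 peaks of the 19q11 block are spread over 89.4 kb.

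Undosed compound 2 peaks lay in some of these places, at lower number. The 10p11.1 interval of the 40 peaks held 6 undosed compound 2 peaks, ranked 148 to 421 of 486, and these were also the largest block of the undosed list. The 20q11.21 interval held 2 and the 10q11.21 interval 1, while the smaller 10p11.1 interval held 0, the nearest undosed peak being 288 kb away. Neither compound 4 list had a peak in any of the 4 intervals. These span only 16.5 to 49.8 kb, and how many compound 4 peaks such a stretch holds elsewhere was not computed. The absence is thus not read as a trait of the blocks. The closest compound 4 peak was 168 kb from the 20q11.21 block (undosed list) and 979 kb from the smaller 10p11.1 block (400 nM list). Of the 40 peaks in the largest block, 5 overlapped an undosed compound 2 peak, and of the 15 in 10q11.21, 2 did so.

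The undosed compound 2 list had other small groups of its own. A block in 12q12 (chromosome 12, 40105214 to 40108111) held 4 peaks within 2.90 kb that joined into 1 region, and it included the peaks ranked 26 and 35. At 400 nM, 2 compound 2 peaks lay in that interval, and 3 of the 4 undosed peaks overlapped them. Pairs of overlapping peaks in 6p11.2 (chromosome 6, 57529846 to 57530662, best rank 58) and 5p12 (chromosome 5, 45373517 to 45374331, best rank 66) completed the 4 largest blocks, and neither pair overlapped a 400 nM compound 2 peak. These pairs were taken over other pairs by their best rank.

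The largest compound 4 group was in 19q11 (chromosome 19, 27799355 to 27888757), 1.30 to 1.39 Mb from the centromere position. There 14 peaks of the 400 nM list lay in 89.4 kb and covered 9.46% of it. They were farther apart than the compound 2 blocks, with a median step of 5979 bp, and joining within 1 kb left 12 regions. Their ranks ran from 440 to 1312 of 1581, none was in the top 10% of the list, and 5 were in the upper 50%. No undosed compound 4 peak lay in the interval; the nearest was 883 kb away. A second block of this kind, in 8p11.1 (chromosome 8, 43772321 to 43781490), had 4 peaks of the 400 nM list ranked 594 to 1057 and again no undosed peak, the nearest being 514 kb away. Undosed peaks in stretches of such length elsewhere were not counted, so their absence here was not weighed.

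Outside the centromere bands no compound 4 block had more than 3 peaks. Of the blocks with 2 or more peaks there, 25 of 34 in the 400 nM list and 26 of 44 in the undosed list had a peak that overlapped the other list of the compound. Over the whole lists 54.8% (400 nM) and 28.7% (undosed) of peaks did so, and a block has more than 1 peak that can. The share over all blocks of the lists was not computed, so these counts say nothing particular to pericentromeric blocks. In 16p11.2 (chromosome 16, 30929882 to 31025093) the 400 nM list had 3 peaks, best rank 49, each of which overlapped an undosed peak. In 12q12 (chromosome 12, 39969844 to 40047803) it had 3 peaks, of which 2 overlapped undosed peaks. The undosed list had no block above 3 peaks. Its blocks in 18q11.2 (chromosome 18, 24615090 to 24633706, best rank 52), 17q11.2 (chromosome 17, 28556915 to 28665668, best rank 246) and 5q11.2 (chromosome 5, 54501474 to 54599712, best rank 602) each had 2 of 3 peaks overlapping a 400 nM peak. Its block in 7p12.2 (chromosome 7, 49922172 to 49963482, best rank 647) had 1 of 3. A block of the same size in 4q12 (chromosome 4, 56748002 to 56832509), left out of the 4 largest by its best rank of 749, had no peak that overlapped the 400 nM list, whose nearest peak was 1996 kb away.

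The 5 highest-scoring pericentromeric peaks of each list were looked at next. In the 400 nM compound 2 list they were the 3 peaks of the 10p11.1 block named above, the peak ranked 10 at 6p11.2 (chromosome 6, 57667734 to 57668309, score 61.8) and the first peak of the 10q11.21 block (ranked 17, score 50.8). The 6p11.2 peak lay 3.33 Mb from the centromere position and overlapped an undosed compound 2 peak (57667696 to 57668311, score 80.0) that ranked 39 and was the fifth highest of its list near a centromere. In the undosed compound 2 list the highest was the peak ranked 2, at 20p11.21 (chromosome 20, 22989378 to 22989761, score 323), followed by 2 peaks of the 12q12 block (scores 85.2 and 81.1) and the peak ranked 27 at 4p12 (chromosome 4, 46119634 to 46120249, score 84.3). The 4p12 peak overlapped the 400 nM peak ranked 721 of 923.

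None of the 5 highest in either compound 4 list, or in the undosed compound 2 list, lay within 3 Mb of a centromere position, where 4 of the 5 of 400 nM compound 2 were. Of all pericentromeric peaks, 11.7% (undosed compound 4), 23.7% (400 nM compound 4), 22.6% (undosed compound 2) and 62.4% (400 nM compound 2) lay there. Counts out of 5 are too few to set the highest peaks apart from these shares, and 3 of the 4 came from the 10p11.1 block. At 400 nM the compound 4 peaks were 2 at 11q12.1 (chromosome 11, 57170633 to 57171236 and 57171052 to 57171238, ranks 11 and 14), 2 at 20p11.21 (chromosome 20, 22519121 to 22519724 and 22519364 to 22519967, ranks 17 and 18) and 1 at 16p11.2 (chromosome 16, 31024286 to 31024889, rank 49). In the undosed list the same places held ranks 20 (11q12.1), 14 (20p11.21) and 43 (16p11.2), each overlapping those 400 nM peaks. The undosed list also had the peak ranked 11 at 10q11.21 (chromosome 10, 44225371 to 44225651, score 536), which overlapped the 400 nM peak ranked 140, and that ranked 27 at 20p11.21 (chromosome 20, 22989387 to 22989726, score 432), which overlapped no 400 nM peak.

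Ranks of pericentromeric peaks within their lists were compared as well. In the 400 nM compound 2 list, 31 of 173 were in the top 10% of the list (17.92%, 12.5 to 24.5%; 9.97% of the whole list), and their median score was 29.3 against 26.2 for the other peaks. Of the 85 peaks in the 4 largest blocks 20 were in the top 10% (23.5%), and of the 88 outside them 11 were (12.5%). Undosed compound 2 had 6 of 62 in the top 10% (9.68%; 9.88% of the whole list), with medians of 47.8 and 44.0. Undosed compound 4 had 33 of 273 (12.1%, 8.47 to 16.6%; 9.99% of the whole list), with medians of 56.5 and 54.6. The 400 nM compound 4 list had 22 of 198 (11.1%, 7.10 to 16.3%; 9.99% of the whole list), with a median of 29.8 below the 32.1 of the other peaks. The intervals of the last 3 lists include the share of the whole list.

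Overlap of at least 1 bp with the other list of a compound was then counted. For undosed compound 2, 16 of 62 pericentromeric peaks (25.8%, 15.5 to 38.5%) overlapped a 400 nM peak, where 26.7% of the whole list did. In the 400 nM compound 2 list, 16 of 173 (9.25%, 5.38 to 14.6%) overlapped an undosed peak, against 12.8% of the whole list. Undosed compound 4 had 88 of 273 (32.2%, 26.7 to 38.1%), against 28.7%, and 400 nM compound 4 had 93 of 198 (47.0%, 39.9 to 54.2%), against 54.8%. The lists of a compound differ in length, and if an undosed list included 400 nM libraries part of its overlap would hold by construction. Over the whole windows these shares were near those of their lists, with the 400 nM compound 4 share the one whose interval lies below that of its list.

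**Figure D4:**
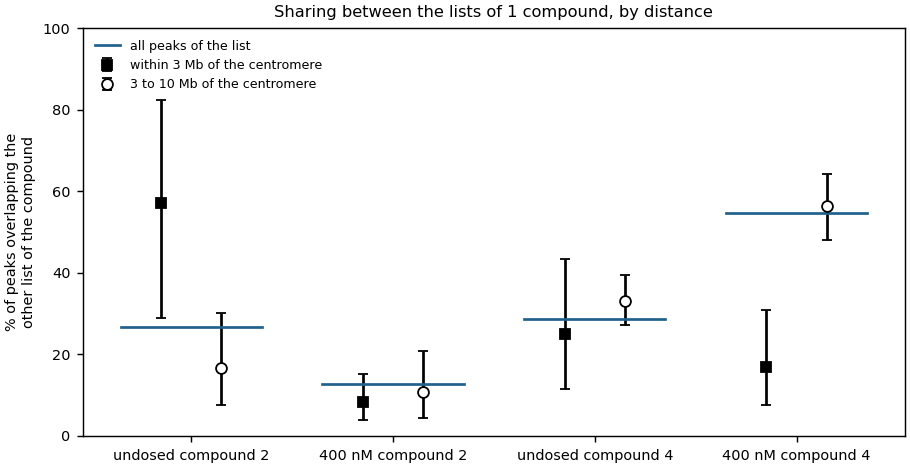
Percent of peaks that overlapped the other list of the compound (vertical axis) in each list (horizontal axis), for peaks within 3 Mb of the centromere (squares) and from 3 to 10 Mb (circles), with exact 95% binomial intervals as bars and the share of the whole list as a blue line. For 400 nM compound 4 the inner share is 17.02% and the outer one 56.3%.

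The low share of 400 nM compound 4 was found in the inner zone, by the 3 Mb limit chosen after the values were seen. Within 3 Mb, 8 of 47 peaks overlapped an undosed peak (17.02%, 7.65 to 30.8%), and from 3 to 10 Mb 85 of 151 did (56.3%, 48.0 to 64.3%). The inner peaks also had lower ranks, with 17 of 47 in the upper 50% of the list against 68 of 151. Within that upper 50%, 6 of 17 inner peaks (35.3%) and 61 of 68 outer peaks (89.7%) were shared, and among lower-scoring peaks 2 of 30 (6.67%) and 24 of 83 (28.9%). All other peaks of the list were shared for 576 of 705 (81.7%) in the upper 50% and 197 of 678 (29.06%) below it, so the inner shares were the lower ones in both score ranges, on 17 and 30 peaks. Without the 4 largest blocks the inner share was 8 of 29 (27.6%, 12.7 to 47.2%). Undosed compound 4 had inner and outer shares of 8 of 32 and 80 of 241, with intervals that overlap.

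For undosed compound 2 the inner zone had the higher share, 8 of 14 (57.1%, 28.9 to 82.3%) against 8 of 48 (16.7%, 7.48 to 30.2%), and the 2 intervals meet between 28.9% and 30.2%. Of the 8 inner peaks 5 were in the 10p11.1 block, and outside the largest blocks 3 of 8 inner peaks were shared. In the 400 nM compound 2 list inner and outer shares were 9 of 108 (8.33%) and 7 of 65 (10.8%). Counted by peak, the crowded blocks of that list were not shared more often. In them 8 of 85 peaks overlapped an undosed peak (9.41%), and outside them 8 of 88 did (9.09%). Neighbouring peaks of a block are not separate places, however. By block, the overlapping peaks numbered 5 (largest, 10p11.1), 1 (20q11.21), 2 (10q11.21) and 0 (smaller 10p11.1). As places, all but the last thus held a shared peak.

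No pericentromeric peak of the 400 nM lists was common to both compounds. Overlap was found for 0 of 173 peaks of compound 2, which allows up to 1.73% (0.325% of the whole list), and for 0 of 198 of compound 4, which allows up to 1.52% (0.19% of the whole list). In the undosed lists, 4 of 62 peaks of compound 2 (6.45%, 1.79 to 15.7%; 10.5% of the whole list) and 4 of 273 of compound 4 (1.47%, 0.401 to 3.71%; 1.82% of the whole list) overlapped. Across dose labels, 2 of 173 peaks of 400 nM compound 2 (1.16%; 1.84% of the whole list) met 2 of 273 of undosed compound 4 (0.733%; 0.52% of the whole list). For undosed compound 2 against 400 nM compound 4 it was 0 of 62, which allows up to 4.84% (0.206% of the whole list), and 0 of 198 counted from compound 4 (0.0633% of the whole list). All these shares were within counting error of their lists.

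The places where the compounds met were few enough to name. At 20p11.21 (chromosome 20, 22989378 to 22989761) the undosed compound 2 peak ranked 2 overlapped the undosed compound 4 peak ranked 27, and neither 400 nM list had a peak there. At 20q11.21 the undosed compound 2 peak ranked 76 (chromosome 20, 29635823 to 29636438) and the 400 nM compound 2 peak ranked 20 both overlapped the undosed compound 4 peak ranked 1449. At 12q12 the undosed and 400 nM compound 2 peaks ranked 115 and 520 (chromosome 12, 39750054 to 39750669 and 39750093 to 39750668) overlapped the undosed compound 4 peak ranked 635. The last was at 19q12 (chromosome 19, 32233292 to 32233907), where ranks were 399 of 486 and 2992 of 3074. The 20q11.21 and 12q12 places were each in 3 of the 4 lists.

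On a coarser scale, chaining the peaks of all lists at 100 kb gave 372 blocks. Compound 2 alone was found in 82, compound 4 alone in 269 and both in 21, or 20.4% of the blocks with compound 2 and 7.24% of those with compound 4. Chained the same way over all autosomal peaks, both compounds met in 276 of 3670 blocks, or 26.98% of those with compound 2 and 9.44% of those with compound 4. Pericentromeric blocks in both lists of a compound numbered 13 for compound 2 (12.6% of its blocks, 12.1% over all autosomal peaks) and 74 for compound 4 (25.5%, 25.8% over all autosomal peaks). All 4 lists met in 2 blocks, at 12q12 (chromosome 12, 39969844 to 40108214) and 6p11.2 (chromosome 6, 57494048 to 57530662).

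Members lay on both arms, and gaps of the build were not subtracted on either. The short-arm side held 38 of 62 peaks of undosed compound 2, 84 of 173 of 400 nM compound 2, 130 of 273 of undosed compound 4 and 104 of 198 of 400 nM compound 4. At the edge of the windows, the last peaks inside were 9.996, 9.90, 9.98 and 9.98 Mb away in the same order, and the first ones outside were 10.02, 10.2, 10.007 and 10.007 Mb away.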

How the data were processed

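The 4 deposited lists of peaks were used, on hg19 per the submitters' processing notes, which name CASAVA 1.8.2, Bowtie 1.0 and HOMER without roles. No source used here gives the peak calling settings, the pooling of libraries or the use of the input, and read depth is unknown. Each list has chromosome, start, end and a score that the authors deposited for every peak, on a scale not stated; scores served only to rank peaks within a list. Starts and ends, also as deposited, are printed counted from 1. The 400 nM lists were taken as 1 list per group, and undosed lists were put in no group.

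Peaks were placed by midpoint, joined at gaps of at most 1 kb and chained into blocks at 100 kb. Sharing 1 bp or more counted as overlap. Shares carry exact (Clopper-Pearson) 95% intervals, and a count of 0 allows up to 3 counts. No test was made, since there is 1 list per compound and dose label. Named peaks were the 5 highest-scoring per list, the 4 largest blocks (ties by best rank), the 3 leading chromosomes, overlaps between compounds and the peaks at the window's edge; other named peaks were chosen after their values were seen. Members, window and rules were chosen with earlier results of these data known. Planned motif counts were not run, because no hg19 sequence was used here. Bands came from circlize 0.4.16 and lengths from GenomeInfoDb 1.38.1, with Python 3.11.15, scipy 1.17.1 and pandas 2.3.3. Counting steps were first tested on simulated lists.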

Additional observations from a re-analysis of the deposited data

Results flagged for a closer look

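The rule covered autosomes, and peaks near the centromeres of chromosomes X and Y were in no comparison. The midpoint of their centromere bands was taken as the position. Within 10 Mb of it lay 24 of 66 undosed compound 4 peaks and 15 of 40 peaks of 400 nM compound 4 on these chromosomes. The compound 2 lists had 2 of 11 (undosed) and 3 of 9 (400 nM) there. The compound 2 counts are small and no share of length was set beside any of them, so the lists were not compared on these chromosomes.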

How the results depend on the processing

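Of 60 recomputed shares and ratios that answer a comparison, 47 stayed within the 95% interval of the reported value and 13 did not. For 400 nM compound 2 the ratio to length (1.24) became 0.890 with peaks within 1 kb merged and 0.826 without chromosome 10. It was 0.695 without the 4 largest blocks, a setting added after seeing the data. Those removals were of places picked for their many pericentromeric peaks, so a lower ratio follows from the choice. The ratio became 1.91 in windows of 5 Mb, 1.04 in windows of 20 Mb and 1.67 in the upper 50% by score. For undosed compound 4 (0.594) it was 0.466 at 5 Mb, 0.837 at 20 Mb and 0.692 from the edges of the centromere bands. For 400 nM compound 4 (0.841) it was 0.990 at 20 Mb and 0.730 in the upper 50% by score. Overlap with the other list of compound 4 was 42.8% (undosed) and 74.1% (400 nM) in the upper 50% of both lists. The same share over the other peaks was not computed, so the rise is not read as particular to pericentromeric peaks. Against the other list in full, 49.7% (undosed) and 81.7% (400 nM) of the other peaks in the upper 50% overlapped. All ratios for undosed compound 2 stayed within its interval, from 0.682 to 1.07, and so did all overlaps between compounds. No paired analysis was possible because each group has 1 list and the replicate numbers of the libraries are not carried by the lists. The windows include unsequenced gaps, whose part in the ratios was not tested, and with unknown read depth the reason for the length of a list was not tested either.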

Other observations

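Smaller groups of 400 nM compound 2 peaks lay beside other centromeres. Chromosome 16 had 13 of them, with 6 in 16p11.2 (chromosome 16, 34183235 to 34196773, best rank 80) and 7 in 16q11.2 (chromosome 16, 46441150 to 46500404, best rank 36). These groups joined into 4 and 3 regions, and the other lists had no peak in them except 1 undosed compound 2 peak in the 16p11.2 interval, which overlapped none of the 6. Stretches of such length elsewhere were not counted, so the lack of peaks of other lists was not weighed. In the centromere band of chromosome 7, 1 peak of 400 nM compound 2 (chromosome 7, 61055247 to 61055822) ranked 53, and 2 peaks of 400 nM compound 4 lay in the same band (chromosome 7, 61540992 to 61541595 and 61541272 to 61541875, ranks 764 and 734).

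Band 3p11.1 held the largest set of centromere-band peaks of undosed compound 4, with 7 peaks ranked 237 to 2589, of which 2 lay within 100 kb of each other. Of these, 2 overlapped 400 nM compound 4 peaks: the pair at chromosome 3, 89260598 to 89261167, ranked 237 and 101 in the undosed and 400 nM lists, and the pair at 89869660 to 89870229 ranked 2327 and 1354.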
